A study of Mus musculus with 133 samples.

Results

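The livers of very old mice were compared between 96 h (labelled 4 days) and 52 h after partial hepatectomy (PH) across all genes of the deposited table. The 12 libraries came from wild-type mice of 100 weeks, 3 from females (VOF) and 3 from males (VOM) at each time, out of 133 libraries in the series. They were chosen by their labels alone. A further 3 libraries of these groups carry an X beside the replicate number, and they were left out because 3 unmarked ones remained in each group. All mice were C57BL/6, and PH meant ligation and removal of the left and median lobes under isoflurane. Sham-operated mice had a midline incision closed again with no removal of liver, and normal livers had no surgery. For comparison the text uses very old sham livers of the same times, normal very old livers, and livers of young females (YF) and young males (YM) of 11 to 14 weeks after PH. RNA came from hepatocytes isolated by collagenase digestion, and transcripts were counted at their 3' ends with unique molecular identifiers (3'UTR-seq). All 12 hepatocyte marker genes fixed for the check (albumin, transthyretin and others) were in the table. Surgery was done between 8 and 12 o'clock, so livers were collected between 12 and 16 o'clock at 52 h and between 8 and 12 o'clock at 96 h.

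After resection the remaining hepatocytes of a rodent liver leave their resting state, copy their DNA and divide, and the organ regains its mass while it goes on with its metabolic work. Cyclins with their kinases drive the passage from one phase of the cycle to the next, the MCM helicase and its partners copy the genome, and a late set of kinases, kinesins and spindle proteins carries the cells through mitosis. In mice the first wave of DNA synthesis is commonly delayed and blunted in old age, and sex hormones and growth hormone set different programmes of cytochrome P450 enzymes in males and females.

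Library totals ranged from 1207501 to 2511742 counts in the 12 libraries. On the first principal component (33% of the variance) the 3 VOM libraries at 52 h lay at 37.4 to 51.8, and the other 9 lay between -17.7 and -9.69. One of these VOM libraries, replicate 3, carries the same "mix" number in its label as replicate 3 of VOF at 96 h, and they lay at 40.7 and -16.8. What a mix stands for is not given in the sources used here. Each comparison is therefore given over both sexes and for VOF and VOM apart. The VOF fold changes compare VOF libraries only. The spread behind their standard errors, p-values and calls was estimated over all libraries of the fit, with those of VOM at 52 h among them. The libraries fell into 7 mixes, and apart from that shared mix none held libraries of both times among the 12. In each sex the time and the mix therefore cannot be told apart except where stated.

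Over both sexes 358 genes were higher and 250 were lower at 96 h than at 52 h, of 11043 tested. That is 3.24% and 2.26%, and 5.51% in either direction. Here and below, a call needs a change of 2-fold or more and a p under 0.1 in edgeR's quasi-likelihood test after Benjamini-Hochberg adjustment over all genes. The p-values rest on the spread between the libraries, which the study describes as separate mice. In the fit over both sexes, with sex as a block only, that spread also holds any difference between VOF and VOM in the change over time. Levels are counts scaled to a common library size (CPM). The median log2 fold change of all genes was -0.01. The 10 genes with the largest increase were Ifit1, Tgtp1, Rsad2, Ifit3, Ifi44, Gsta2, Gstm3, Ifit3b, Ifi206 and Cmpk2, by the rule that the libraries of the 2 times do not overlap over both sexes and the mean is at least 10 CPM. Most of them are interferon-stimulated genes, and Gsta2 and Gstm3 encode glutathione S-transferases. By the same rule the largest decreases were those of Thbd, Fabp4, Igfbp1, Msrb3, Dusp8, Mgll, Gabbr2, Nlrp12, Cyp51 and Plin2. Thbd encodes thrombomodulin, Igfbp1 an insulin-like growth factor binding protein made by hepatocytes, Cyp51 a cholesterol synthesis enzyme and Plin2 a lipid droplet coat protein. In 273 genes (2.47% of those tested) every 96 h library of either sex lay above every 52 h library of either sex, and in 145 genes (1.31%) every one lay below.

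The sexes did not change in the same genes to the same extent. In VOF 326 genes (2.95%) rose and 312 (2.83%) fell, and in VOM 892 (8.08%) rose and 742 (6.72%) fell. These shares, and those over both sexes, are the background for the list counts below. Of the called genes, 87 rose in both, 20 fell in both and 89 were called in opposite directions. The genes called in the same direction were 16.8% of the VOF calls and 6.55% of the VOM calls. Across the 11043 genes the log2 fold changes of VOF and VOM had a Pearson r of 0.16. Genes are not independent replicates, and this r describes only these libraries. The difference between the sexes itself, tested as an interaction, was called in 1861 genes (16.9%), of which 1020 (9.24%) were lower and 841 (7.62%) higher in the VOF difference than in the VOM difference.

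**Figure D1:**
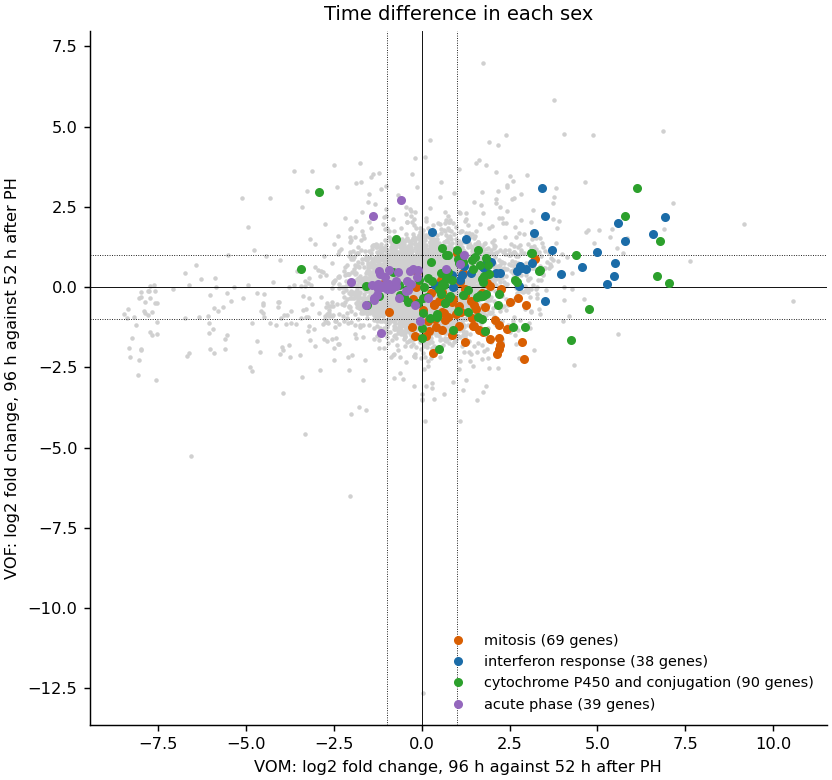
Each point is a gene, with the log2 fold change from 52 h to 96 h after PH in VOM on the x axis and in VOF on the y axis, and dotted lines at a 2-fold change. The 69 mitosis genes (orange) lie mostly to the lower right, higher in VOM and lower in VOF, and the 38 interferon-stimulated genes (blue) lie to the right, with 37 of 38 above 0 in VOF.

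Interferon-stimulated genes rose from 52 h to 96 h, and those of VOM rose further. These genes respond to type I or type II interferon, and their products block viral RNA and translation, edit proteins with ubiquitin-like tags or attract lymphocytes. Of the 41 genes listed, 38 were tested, 27 rose over both sexes and none fell, with a median log2 fold change of 1.61. All 38 had a positive log2 fold change. In VOF 7 rose (median 0.61) and in VOM 31 rose (median 2.78), with no fall in either. Fewer responding cells and less RNA per cell cannot be told apart in such bulk samples, here and in all groups below.

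Ifit1, which binds foreign RNA at its 5' end, was at 14.4, 18.9 and 17.5 CPM in VOF at 52 h and at 62.5, 76.2 and 90.5 CPM at 96 h. In VOM it was at 7.94, 4.76 and 3.65 CPM and then at 793, 677 and 572 CPM. In each sex every 96 h library lay above every 52 h library, and VOM went from the lower to the higher level of the 2 sexes. The log2 fold change of Ifit1 was 2.17 ± 0.23 (SE) in VOF (edgeR adjusted p = 0.000517) and 6.92 ± 0.28 in VOM (edgeR adjusted p = 6.59e-09), and the difference between the sexes was -4.76 ± 0.36 (edgeR adjusted p = 2.86e-05). Rsad2 encodes viperin, an enzyme that makes a chain-terminating nucleotide. Its levels were 5.96, 10.2 and 7.42 CPM in VOF at 52 h against 21.4, 17.4 and 33.8 CPM at 96 h, and 4.27, 3.46 and 3.65 CPM in VOM against 397, 433 and 286 CPM. Neither sex overlapped between times. The rise was 1.66 in VOF and 6.58 in VOM on the log2 scale, with a difference of -4.92 (edgeR adjusted p = 0.000141). Ifit3 rose by 2 in VOF and 5.59 in VOM, and Cmpk2, a mitochondrial nucleotide kinase, by 1.55 and 5.36.

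Not every member had this sex difference. Cxcl9 encodes a chemokine that attracts T cells. It was at 3.97, 6.09 and 6.07 CPM in VOF at 52 h and at 45.1, 42.3 and 52 CPM at 96 h. In VOM it went from 1.83, 2.59 and 2.19 CPM to 43.9, 9.42 and 19.9 CPM. The 96 h libraries were above the 52 h libraries in both sexes, with a wide spread among the VOM libraries at 96 h. The log2 fold changes were 3.09 in VOF and 3.42 in VOM, and their difference of -0.34 ± 0.77 did not pass the test (edgeR adjusted p = 0.804). For Cxcl10, a related chemokine, they were 2.21 and 3.51, with a difference of -1.31 ± 0.61 (edgeR adjusted p = 0.167). At the other end stood Isg15, a ubiquitin-like modifier, and Usp18, the protease that removes it from proteins. Isg15 was at 2.48 to 8.12 CPM in VOF at 52 h and 6.2 to 8.47 CPM at 96 h, and went from 2.19 to 4.27 CPM to 107 to 175 CPM in VOM. Its log2 fold change was 0.36 ± 0.38 in VOF (edgeR adjusted p = 0.6) and 5.47 in VOM, and Usp18 had 0.1 ± 0.35 and 5.28. The VOF libraries of Isg15 overlapped between the times, and those of VOM did not. Over the list, 22 of 38 members differed between the sexes, all with a larger rise in VOM, beside 9.24% of all genes.

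**Figure D2:**
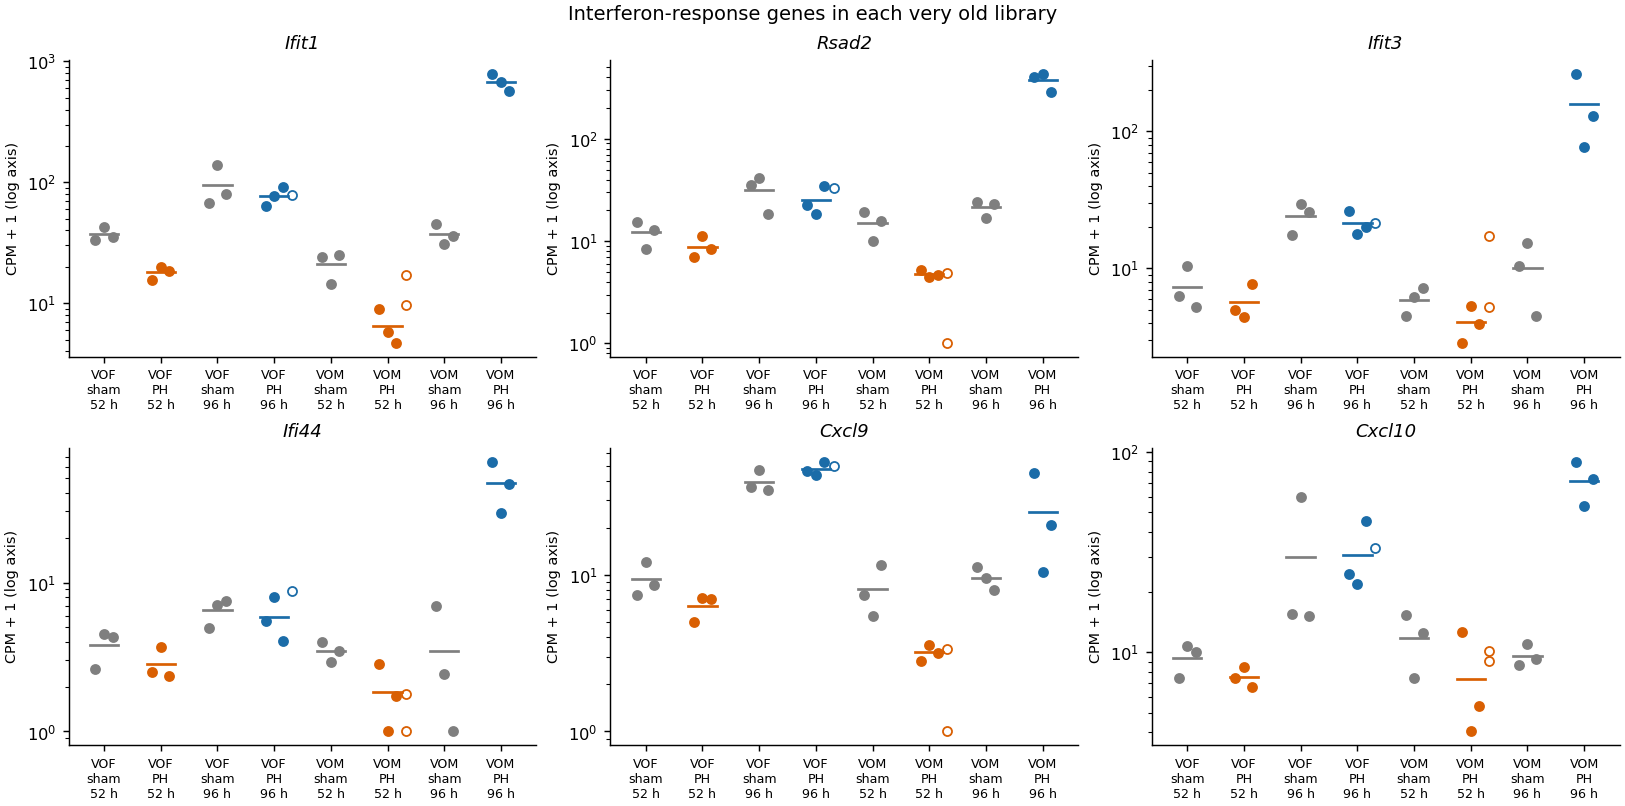
CPM + 1 (log axis) of 6 interferon-stimulated genes in each library of the very old sham and PH groups at 52 h and 96 h. Ifit1 and Rsad2 in VOM at 96 h stand above every other library shown, while the VOF and VOM libraries of Cxcl9 at 96 h overlap.

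RefSeq promoters of these genes (250 bases before to 50 after the start, GRCm38.p6) were searched on both strands for GAAA, any 2 bases and GAAA again, a core of the interferon-stimulated response element that was chosen after the values were seen. It was in 17 of 32 interferon genes with a promoter in the table (53.1%) and in 3.44% of all 32851 promoters (3.99% of genes). A match is a description of letters, and no binding was measured. The stretches below are shown for named genes of the list, 3 among the largest rises and Cxcl10 and Isg15 as a pair unlike in their sex difference, with the match in capitals, TTTC first where it lies on the other strand.
Ifit1, chr19:34640794-34640823, + strand: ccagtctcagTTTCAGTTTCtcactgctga
Ifit3, chr19:34583397-34583426, + strand: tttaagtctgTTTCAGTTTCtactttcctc
Rsad2, chr12:26456553-26456582, - strand: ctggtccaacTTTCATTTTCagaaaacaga
Cxcl10, chr5:92349083-92349112, - strand: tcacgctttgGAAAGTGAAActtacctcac
Isg15, chr4:156200865-156200894, - strand: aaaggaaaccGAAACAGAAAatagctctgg
Ifit1 and Ifit3 share the same letters across the match, and Cxcl10 and Isg15, which behaved unlike each other in VOF, both hold the motif. No match was found in the windows of Ifi44 and Cxcl9.

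Mitosis genes moved in opposite directions in the 2 sexes. Of 77 genes listed 69 were tested, and over both sexes none was called by edgeR or DESeq2, with 5 at an unadjusted edgeR p under 0.05 and a median log2 fold change of 0.02. In VOF 20 of them fell and none rose (median -0.76), whereas in VOM 23 rose and 1 fell (median 1.08). The difference between the sexes was called in 33, of which 32 were lower in the VOF difference and 1 higher, beside 9.24% and 7.62% of all genes. Leaving out each library in turn gave 14 to 23 falls in VOF, 15 to 36 rises in VOM and 27 to 38 members with a lower VOF difference. With the X libraries included, 18 rose in VOM, the median was 0.46, and 29 had a lower VOF difference.

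The mean log2(CPM + 4) over the 69 genes gives a level per library. In VOF it was 4.87, 4.52 and 5.16 at 52 h and 4.13, 4.5 and 4.4 at 96 h. In VOM it was 3.80, 3.41 and 4.24 at 52 h and 4.27, 4.93 and 4.67 at 96 h. All libraries of VOF at 52 h lay above those at 96 h by a narrow margin, and all of VOM lay below, also by a narrow margin. The X libraries were at 4.25 in VOF at 96 h and at 4.44 and 4.05 in VOM at 52 h, and the higher of these VOM libraries overlapped the VOM range at 96 h. After sham surgery the same level was 2.72 to 3.16 in VOF and 2.74 to 3.30 in VOM over both times, and in normal very old livers it was 3.03 to 3.30 and 2.70 to 2.75. Each PH group thus stood above its sham and normal groups at both times. In the normal VOF libraries 8 to 14 genes exceeded the most transcripts that the molecular identifiers can count. Such genes held 45.4% to 68.6% of the counts of these libraries.

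**Figure D3:**
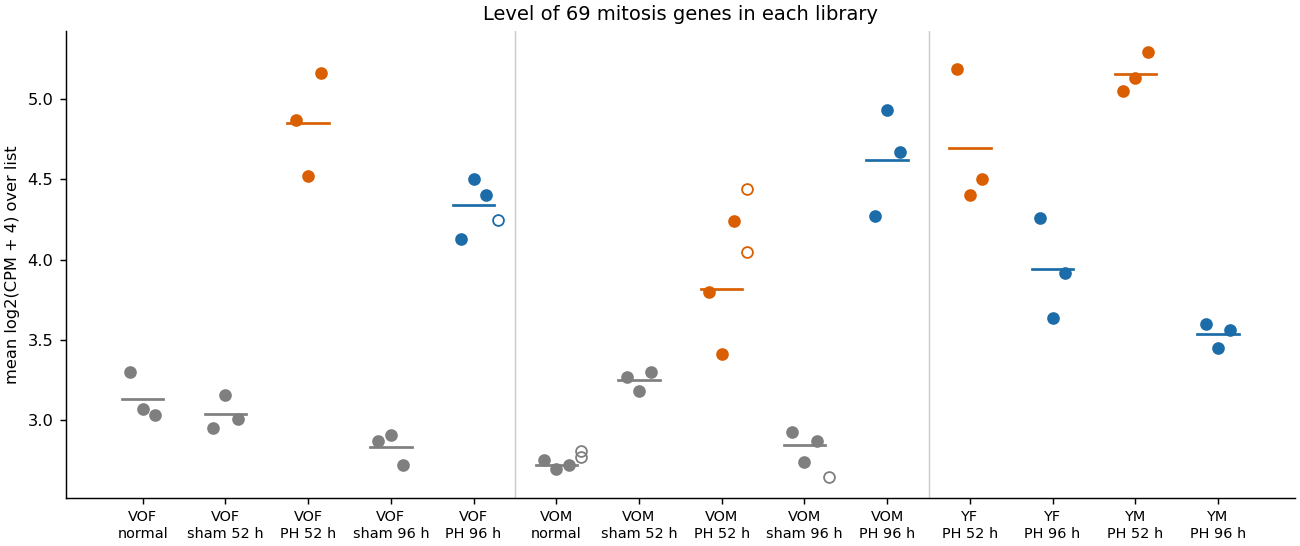
Mean log2(CPM + 4) over the 69 mitosis genes in each library, with lines at group means and open circles for X libraries. VOF falls from a mean of 4.85 at 52 h to 4.34 at 96 h, VOM rises from 3.82 to 4.62, and both young sexes fall.

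Prc1 bundles microtubules in the central spindle and had one of the largest sex differences of the list. It was at 632, 438 and 495 CPM in VOF at 52 h and at 78.3, 147 and 108 CPM at 96 h. It went from 117, 47.1 and 118 CPM to 460, 997 and 689 CPM in VOM. The groups did not overlap in either sex, and the order of the times was opposite. Its log2 fold change was -2.23 ± 0.36 in VOF (edgeR adjusted p = 0.00552), 2.92 ± 0.37 in VOM (edgeR adjusted p = 0.000209) and 0.32 over both sexes (edgeR adjusted p = 0.875). Ect2 activates RhoA at the cleavage furrow. It was at 35.3, 21.7 and 31 CPM in VOF at 52 h against 4.51, 10.5 and 8.23 CPM at 96 h, and at 11.6, 6.48 and 10.9 CPM against 29.8, 61.5 and 40.7 CPM in VOM. It too had no overlap in either sex, with log2 fold changes of -1.92 in VOF and 2.19 in VOM and a difference of -4.11 (edgeR adjusted p = 0.000345).

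Plk1, the polo-like kinase of mitotic entry, was at 1002, 834 and 906 CPM in VOF at 52 h and at 194, 345 and 306 CPM at 96 h. In VOM it was at 267, 0 and 282 CPM and then at 1032, 1722 and 1253 CPM. One VOM library at 52 h, replicate 2, is listed at 0 for this gene. The difference between the sexes was -4.56 ± 1.24 (edgeR adjusted p = 0.0268), and the VOF fall of -1.70 ± 0.86 passed the test only when that VOM library was left out (edgeR adjusted p = 0.235 with it). Ccnb1, the mitotic cyclin, changed by -1.39 ± 0.42 in VOF and 1.76 ± 0.50 in VOM, and its VOF call was lost in 4 of the 12 fits without 1 library. Its partner kinase Cdk1 was at 262, 133 and 197 CPM in VOF at 52 h and 54.1, 93.1 and 109 CPM at 96 h. The VOM libraries of Cdk1 were at 102, 43.7 and 97.8 CPM and then at 109, 240 and 164 CPM. The sex difference of Cdk1 was -2.27 ± 0.53 (edgeR adjusted p = 0.0132), and with the X libraries it was -1.60 (edgeR adjusted p = 0.0694), while its VOM rise of 1.06 became 0.37 (edgeR adjusted p = 0.561).

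Aurka, the centrosomal Aurora kinase, fell in VOF and was not called in VOM. Its CPM was 291, 168 and 251 in VOF at 52 h and 42.2, 63.2 and 64.5 at 96 h, and in VOM 72, 55.3 and 78.8 against 55.5, 126 and 79. The VOM libraries overlapped. The log2 fold change of Aurka was -2.07 ± 0.29 in VOF (edgeR adjusted p = 0.00328) and 0.32 ± 0.29 in VOM (edgeR adjusted p = 0.483), with a difference of -2.38 (edgeR adjusted p = 0.00311). Mki67, the common proliferation marker, had a smaller difference. It was at 116, 60.2 and 87.3 CPM against 43.4, 55.3 and 54.6 CPM in VOF, and at 83, 29 and 64.9 CPM against 54.2, 112 and 110 CPM in VOM. Neither sex was called for Mki67, and the difference of -1.43 ± 0.51 (edgeR adjusted p = 0.0725) was lost in 8 of the 12 fits without 1 library. Top2a, the topoisomerase that untangles sister chromatids, was called in neither sex nor in the difference.

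The promoters of the mitosis genes were searched for TTTGAA, the core of the cell cycle homology region, and for CCAAT, the box bound by NF-Y, on both strands. TTTGAA was in 40 of 55 mitosis genes with a promoter in the table (72.7%), beside 17.9% of all promoters and 20.2% of genes. CCAAT was in 41 of 55 (74.5%), beside 37.4% of promoters and 41.1% of genes. The stretches are shown for named members whose sexes differed, with TTTGAA in capitals.
Prc1, chr7:80294436-80294461, + strand: tctggctcggTTTGAAttccgcgggg
Plk1, chr7:122159455-122159480, + strand: cagcgccgcgTTTGAAttcggggagg
Ect2, chr3:27153829-27153854, - strand: gagcgactggattttTTTGAAtcgga
Aurka, chr2:172370523-172370548, - strand: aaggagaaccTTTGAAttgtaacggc
Cdk1, chr10:69352912-69352937, - strand: ccgcggcgagTTTGAAactgctggca
Mki67, chr7:135716462-135716487, - strand: gccgttttggTTTGAAtcgggcgggc
The match began 5 bases before the start in Prc1 and 15 before it in Cdk1. Ccnb1 held CCAAT and no TTTGAA in its window.

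Few DNA replication genes were called. Of 43 tested from 54 listed, 5 fell and none rose over both sexes (median -0.31), beside 2.26% and 3.24% of all genes. In VOF 6 fell (2.83% of all genes did). In VOM 2 rose and 3 fell, near or under the 8.08% and 6.72% of all genes. Mcm3, a subunit of the replicative helicase, was at 22.9, 18.3 and 22.3 CPM in VOF at 52 h and at 2.82, 3.98 and 3.9 CPM at 96 h. Its VOM libraries lay at 6.1 to 8.03 CPM at 52 h and 6.09 to 9.52 CPM at 96 h. Mcm3 fell by 2.55 on the log2 scale in VOF (edgeR adjusted p = 0.000484), while in VOM the log2 fold change was 0.06 and the groups overlapped. Fen1, the flap endonuclease, had the reverse pattern. It lay at 3.38 to 5.4 CPM and 2.6 to 3.49 CPM in VOF, and went from 14.7, 18.2 and 17.5 CPM to 3.31, 4.43 and 3.39 CPM in VOM, a fall of 2.2 on the log2 scale. Ccne1, the cyclin of the G1 to S passage, had levels of 6.46, 4.74 and 6.07 against 6.76, 3.49 and 6.93 CPM in VOF and of 14.7, 16.9 and 15.3 against 2.07, 3.88 and 3.39 CPM in VOM. Only the VOM libraries of Ccne1 were separate, with a log2 fold change of -2.37 (edgeR adjusted p = 0.000203), against -0.03 in VOF and a difference of 2.33 (edgeR adjusted p = 0.00458). Among 20 G1 control genes 1 was called over both sexes (5.51% of all genes were) and 3 fell in VOF (2.83%). In VOM 4 rose and 2 fell (8.08% and 6.72%).

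Cdkn1a encodes p21, an inhibitor of cyclin-dependent kinases. It was at 327, 308 and 259 CPM in VOF at 52 h and at 110, 48.3 and 116 CPM at 96 h. In VOM the levels were 172, 368 and 277 CPM and then 505, 557 and 526 CPM. The libraries of the 2 times were separate in both sexes, with the order reversed. Cdkn1a fell by 1.71 in VOF on the log2 scale (edgeR adjusted p = 0.00843). In VOM its log2 fold change was 0.93 ± 0.30, under the 2-fold limit, and the difference was -2.64 ± 0.43 (edgeR adjusted p = 0.00228). Of 18 p53 target genes, 3 rose over both sexes, namely Phlda3 (2.72), Bbc3 (1.44) and Dglucy (1.09). Phlda3 had 4 counts in all over the VOM libraries at 52 h and a mean of 7.36 CPM at 96 h. Against a floor of 3 counts per library that is at least 4.15-fold higher in VOM.

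Several glutathione S-transferase genes rose, most of all in VOM. Of 90 genes for cytochromes P450 and conjugating enzymes, 19 rose and 3 fell over both sexes (median 0.33). In VOF 9 rose and 6 fell (median 0.05), in VOM 38 rose and 4 fell (median 0.95), and the sexes differed in 38, 35 of them with a lower VOF difference. Of all genes 3.24% rose and 2.26% fell over both sexes, 2.95% and 2.83% in VOF, and 8.08% and 6.72% in VOM. The VOF difference was the lower one in 9.24% of all genes. Averaged over the 90 genes, log2(CPM + 4) was 5.95 for VOM 52 h after PH. No other very old PH, sham or normal group was as low. By 96 h VOM reached 6.85, beside 6.98 for VOF at either time after PH. Normal VOM livers had 7.17, and VOM livers 96 h after sham surgery had 6.95. The list in VOM thus rose from a low 52 h level and did not exceed these groups. Gstm1 was at 1129, 735 and 905 CPM in VOF at 52 h and at 1968, 1804 and 2000 CPM at 96 h. Its VOM levels went from 320, 259 and 308 CPM to 3398, 1791 and 2699 CPM. Both sexes rose without overlap, by 1.05 in VOF and 3.13 in VOM on the log2 scale. Gsta4, which clears lipid peroxidation products, went from 77, 56.2 and 67.8 CPM to 180, 101 and 126 CPM in VOF and from 11, 7.78 and 13.1 CPM to 242, 193 and 223 CPM in VOM. Its 2 times were separate in each sex, and the log2 fold change over both was 2.47 ± 0.51 (edgeR adjusted p = 0.0123). Gsta1 was at 0 in all VOM libraries at 52 h and at 55.1, 13.3 and 37.3 CPM at 96 h, at least 19.9-fold higher against a floor of 3 counts per library, which covers counting error only. Gsta1, Gsta2 and the Cyp2a, Cyp3a41 and Gstm genes have close relatives, so that reads of one can be counted for another. Of 28 oxidative stress genes 6 rose, among them Nqo1, a quinone reductase (1.71, edgeR adjusted p = 0.0709).

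Genes of enzymes that are known to differ between the sexes were among the changes. Cyp4a12a, a male-predominant fatty acid hydroxylase, was at 381, 456 and 258 CPM in VOM at 52 h and at 34.4, 14.4 and 98.9 CPM at 96 h, with 0 to 2.82 CPM in VOF. It fell by 2.91 on the log2 scale in VOM (edgeR adjusted p = 0.00159). Over both sexes its direction depended on the model, with -2.44 when sex was a block and 0.03 when the 2 sexes were averaged with equal weight. Cyp3a41a, a female-predominant enzyme, was at 470, 874 and 594 CPM in VOF at 52 h and 140, 466 and 216 CPM at 96 h, while VOM went from 5.49, 7.35 and 9.49 CPM to 27.3, 47.6 and 63.5 CPM. All VOM libraries stayed below all VOF libraries for Cyp3a41a. Its log2 fold change was -1.24 in VOF and 2.61 in VOM, and the difference was -3.85. Of 30 female-biased genes 4 fell in VOF (2.83% of all genes did) and 4 rose and 1 fell in VOM (8.08% and 6.72%). Over both sexes 1 fell, near the 2.26% of all genes. Of 25 male-biased genes 3 rose and 3 fell over both sexes (3.24% and 2.26% of all genes).

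Some genes of lipid droplets, lipid breakdown and sterol synthesis fell, and some of lipid synthesis rose, while most members of these lists were not called. Of 40 fatty acid oxidation genes 7 fell and none rose (median -0.45), with 2 falls in VOF and 13 in VOM. Of all genes 2.26% fell over both sexes, 2.83% in VOF and 6.72% in VOM. Plin2 was at 580, 533 and 588 CPM in VOF at 52 h and 498, 271 and 363 CPM at 96 h. It was at 702, 1886 and 1117 CPM in VOM and then at 298, 388 and 426 CPM. The times did not overlap in either sex, and the VOM libraries at 52 h were the highest. The log2 fold change of Plin2 was -1.18 ± 0.27 (edgeR adjusted p = 0.0205), and the call was lost without VOM replicate 2 at 52 h (-0.92). Mgll, monoacylglycerol lipase, went from 76, 110 and 96.1 CPM to 67, 33.9 and 44.2 CPM in VOF and from 262, 144 and 177 CPM to 25.3, 53.7 and 58.2 CPM in VOM. It fell by 1.55 without overlap in either sex (edgeR adjusted p = 0.00646). Fabp4, a fatty acid binding protein of adipocytes, macrophages and endothelium, fell by 2.01 and Angptl4, a secreted inhibitor of lipoprotein lipase, by 1.45. Cpt1a, the gate of mitochondrial fatty acid entry, had a log2 fold change of -0.21 and was not called.

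Pdk4 and Fgf21, which are induced in fasting, changed in VOM. Pdk4, a kinase that shuts pyruvate out of oxidation, was at 10.4, 53.2 and 43 CPM in VOM at 52 h and at 0.828, 2.77 and 0 CPM at 96 h. Its VOF libraries stayed between 0.497 and 2.71 CPM. The fall in VOM was 4.95 on the log2 scale, and the sexes differed by 5.02, or by 4.68 without VOF replicate 1 at 96 h (edgeR adjusted p = 0.122). Fgf21, a liver hormone, went from 42.1, 7.78 and 8.03 CPM to 0 in all VOM libraries, at least 13.3-fold lower. Cyp4a14, a fatty acid hydroxylase, was at 275 to 549 CPM in VOF at 52 h and 71.2 to 261 CPM at 96 h, and at 532 to 819 CPM and 57.1 to 358 CPM in VOM. The 96 h libraries lay below the 52 h libraries in both sexes, with a log2 fold change of -1.53 ± 0.40 over both (edgeR adjusted p = 0.0315).

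Sterol synthesis fell in a few enzymes. Of 26 genes of cholesterol synthesis 2 fell and none rose over both sexes (median -0.34), beside 2.26% and 3.24% of all genes. Cyp51, lanosterol demethylase, was at 292, 261 and 288 CPM in VOF at 52 h and 91.2, 189 and 86.6 CPM at 96 h, and at 247, 315 and 279 CPM against 133, 79.2 and 143 CPM in VOM. Neither sex overlapped, and the sexes changed alike in size. Its log2 fold change was -1.21 in VOF, -1.26 in VOM and -1.23 ± 0.20 over both (edgeR adjusted p = 0.00429), with a difference of 0.06 ± 0.39. The other call was Msmo1, a sterol oxidase (-1.07). Sqle, squalene epoxidase, had -0.95, short of 2-fold.

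Cyp7a1, the rate-limiting enzyme of bile acid synthesis, rose. It was at 29.8, 23 and 28 CPM in VOF at 52 h and at 75.5, 369 and 117 CPM at 96 h. The VOM levels were 12.8, 1.3 and 6.57 CPM and then 64.2, 11.1 and 43.1 CPM. In VOF all 96 h libraries were higher, while in VOM the lowest library at 96 h (11.1) lay under the highest at 52 h (12.8). The rise was 2.71 ± 0.50 over both sexes (edgeR adjusted p = 0.00705), 2.78 in VOF and 2.61 in VOM, and the VOM call was lost without replicate 2 at 52 h (2.00) or replicate 1 at 96 h (2.06). Normal very old livers spanned 71.9 to 855 CPM in VOF and 80.9 to 217 CPM in VOM. In these VOF libraries 45.4% to 68.6% of the counts lay in genes above the identifier limit, so the VOF range is a weak reference. Of 29 bile acid genes 3 rose, the others being Akr1d1 (1.57), a steroid reductase, and Abcg5 (1.31), a sterol exporter.

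Srebf1, the transcription factor of insulin-driven lipid synthesis, went from 8.94, 12.2 and 12.8 CPM to 11.8, 41.8 and 34.6 CPM in VOF. In VOM it went from 5.49, 10.8 and 10.9 CPM to 26.5, 36 and 35.9 CPM. The VOM times were separate, and 1 VOF library at 96 h lay within the 52 h range. Srebf1 rose by 1.58 ± 0.28 (edgeR adjusted p = 0.00555) and Thrsp, a lipogenic nuclear protein, by 1.93. Of 25 lipogenesis genes 3 rose and none fell over both sexes, and the enzyme genes Fasn (0.58) and Scd1 (0.56) were not called. Of 33 glucose metabolism genes 1 rose and 1 fell, the fall being that of Irs2, an insulin receptor substrate, by 1.15. G6pc (-0.62) and Pck1 (-0.23), enzymes of glucose output, were not called.

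Igfbp1, which is suppressed by insulin and raised in liver injury, was at 145, 118 and 141 CPM in VOF at 52 h and at 92.9, 65.7 and 47.2 CPM at 96 h. In VOM the levels were 205, 789 and 568 CPM and then 35.6, 85.9 and 115 CPM. All 96 h libraries lay below the 52 h libraries in both sexes. Over both sexes Igfbp1 fell by 1.88 (edgeR adjusted p = 0.0166), with -0.99 in VOF (edgeR adjusted p = 0.194) and -2.76 in VOM (edgeR adjusted p = 0.00141). The sex difference of 1.77 (edgeR adjusted p = 0.0758) was lost with the X libraries (edgeR adjusted p = 0.132) and in 8 of the 12 fits without 1 library. Thbd, whose product turns thrombin into an anticoagulant, went from 11.4, 52.1 and 22.6 CPM to 8.45, 8.96 and 9.1 CPM in VOF and from 26.9, 64 and 36.5 CPM to 4.14, 4.99 and 10.2 CPM in VOM. It fell by 2.2 without overlap in either sex (edgeR adjusted p = 0.00561). H19, a fetal non-coding RNA, had 1 count in all over the VOM libraries at 52 h and a mean of 6.01 CPM at 96 h. Against a floor of 3 counts per library that is at least 3.39-fold higher in VOM. Of 31 growth factor and fetal genes 2 rose, H19 (3.46) and Spp1 (1.24), osteopontin, and 3 fell. Among these Inhbb, an activin subunit, fell by 1.8. Inhbe, another activin subunit, went from 1.99, 3.38 and 4.72 CPM to 9.57, 3.98 and 13 CPM in VOF and from 33, 44.1 and 30.6 CPM to 4.14, 5.54 and 3.88 CPM in VOM, and the sexes differed by 4.35 (edgeR adjusted p = 0.000584).

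**Figure D4:**
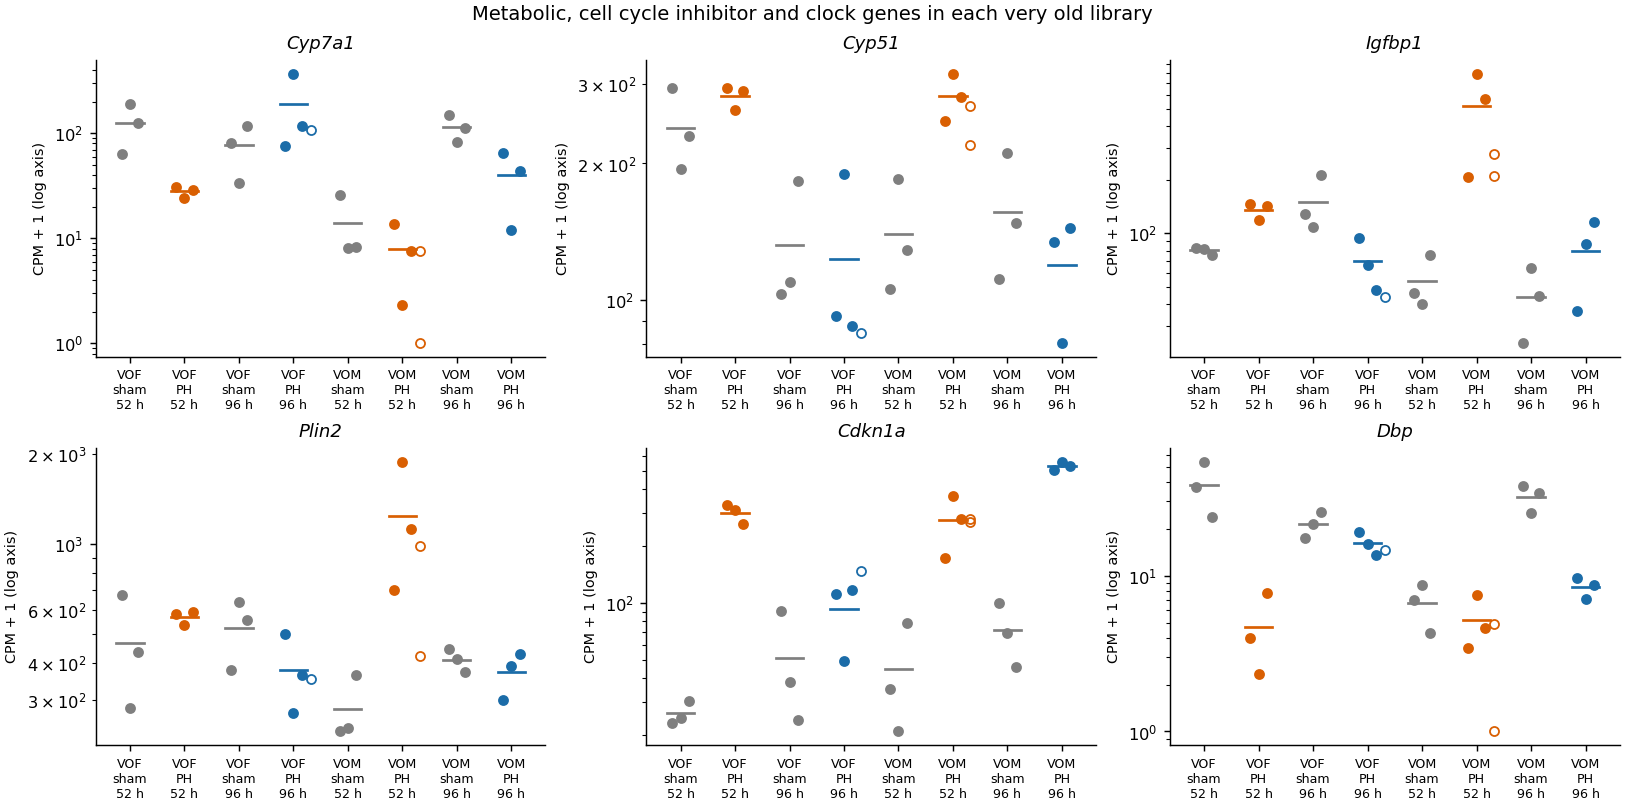
CPM in each library of the very old groups for Cyp7a1, Cyp51, Igfbp1, Plin2, Cdkn1a and Dbp. Cyp51, Igfbp1 and Plin2 lie lower at 96 h than at 52 h after PH in both sexes, and Cdkn1a is lower in VOF and higher in VOM.

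Many acute phase genes fell in VOM. Of 39 tested, 1 rose and 2 fell over both sexes, 2 rose and 1 fell in VOF, and 1 rose and 16 fell in VOM (median -0.88). Of all genes 6.72% fell in VOM, and 2.95% rose and 2.83% fell in VOF. In 15 the VOF difference was the higher one, beside 7.62% of all genes. Leaving out each library in turn gave 10 to 22 falls in VOM and 8 to 22 members with a higher VOF difference. The VOM falls were 10 without VOM replicate 1 at 96 h. The members with a higher VOF difference were 8 or 9 without VOF replicate 3 at 52 h, VOF replicate 2 at 96 h, VOM replicate 2 or 3 at 52 h, or VOM replicate 1 or 3 at 96 h. Saa1, serum amyloid A, was at 5611, 7553 and 5342 CPM in VOF at 52 h and at 2604, 10876 and 6131 CPM at 96 h. It went from 4923, 6876 and 7199 CPM to 1282, 3836 and 2161 CPM in VOM. The VOF libraries overlapped and those of VOM did not. Saa1 fell by 1.41 in VOM (edgeR adjusted p = 0.0362), a call lost without replicate 1 (-1.11) or 3 (-1.33) at 96 h, and had 0.08 in VOF. Saa2 fell by 2.02 and Orm2, an orosomucoid, by 1.21 in VOM. Lcn2, lipocalin 2, differed between the sexes by 1.45 (edgeR adjusted p = 0.0356), and Hamp, the iron hormone hepcidin, had 0.15 over both sexes. The interleukin 1 receptor Il1r1 fell by 1.28 over both sexes (edgeR adjusted p = 0.00624).

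Differentiated functions rose in a few genes. Otc, ornithine transcarbamylase of the urea cycle, was at 1483, 1133 and 1156 CPM in VOF at 52 h and at 2259, 2736 and 2255 CPM at 96 h. In VOM it was at 338, 174 and 334 CPM and then at 1155, 1393 and 1116 CPM. Both sexes rose without overlap, by 1.51 ± 0.23 over both (edgeR adjusted p = 0.00367). Of 45 urea and amino acid genes 3 rose, Otc with Hal (1.14), histidine ammonia lyase, and Prodh (1.04), proline dehydrogenase, and in VOM 13 rose and 2 fell. Of all genes 3.24% rose over both sexes, and 8.08% rose and 6.72% fell in VOM. Alb, albumin, went from 5166 to 6649 CPM to 7643 to 10597 CPM in VOF and from 3757 to 5059 CPM to 5681 to 6613 CPM in VOM, a log2 fold change of 0.56 ± 0.14 (edgeR adjusted p = 0.0245) that was short of 2-fold. Of 57 secreted hepatocyte proteins Serpina6, corticosteroid-binding globulin, rose by 1.66 and Apoa4, an apolipoprotein, fell by 1.6. No member was called over both sexes, by edgeR or DESeq2, among 12 hepatocyte markers, 27 liver transcription factors, 76 respiratory chain genes, 12 mitochondrially encoded genes and 45 ribosome biogenesis genes. At an unadjusted edgeR p under 0.05 there were 3, 5, 6, 0 and 12.

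Calls among immediate early, stress and cytoskeleton genes are set beside all genes, of which 3.24% rose and 2.26% fell over both sexes. Of 19 immediate early genes, Dusp1, a MAP kinase phosphatase, rose by 1.03, and Egr2 (-2.04), Ier3 (-1.20) and Maff (-1.18) fell. Of 32 genes of the endoplasmic reticulum stress response 1 fell, Psat1 (-1.13), an enzyme of serine synthesis. Of 36 cytoskeleton genes 4 rose and 1 fell. Lgals1, galectin 1, went from 10.4, 11.5 and 10.1 CPM to 32.1, 19.4 and 23.8 CPM in VOF and from 7.33, 6.48 and 8.76 CPM to 24.8, 31 and 28.1 CPM in VOM. It rose by 1.53 ± 0.18 without overlap in either sex (edgeR adjusted p = 0.0013). The other rises were S100a6 (1.5), Pfn1 (1.47) and Anxa2 (1.06), and the fall was Actg1 (-1.17), a cytoplasmic actin.

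Clock genes must be read with the hours of collection, which differed between the times. Of 25 clock genes 3 rose, among them Dbp (1.36) and Per3 (1.18). In VOF 6 rose and 1 fell, beside 2.95% and 2.83% of all genes, and in VOM 3 rose and 2 fell, near the 8.08% and 6.72% of all genes. Dbp, a clock output factor, was at 2.98, 1.35 and 6.74 CPM in VOF at 52 h and 18, 14.9 and 12.6 CPM at 96 h, and at 2.44, 6.48 and 3.65 CPM against 8.7, 6.09 and 7.75 CPM in VOM. The VOF times were separate and the VOM times overlapped. After sham surgery at the same hours Dbp had a log2 fold change of -0.85 in VOF (edgeR adjusted p = 0.0596) and 2.55 in VOM (edgeR adjusted p = 0.000134). Npas2, the CLOCK relative that pairs with BMAL1, fell by 2.22 in VOF and rose by 2.77 in VOM. The change after PH minus that after sham surgery was 2.67 for Dbp, 2.15 for Per3 and -4.71 for Npas2 in VOF, each called. In VOM it was -1.79, -0.15 and 1.27, and only that of Dbp was called. The part of the collection hour in these changes was not tested.

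Genes of antigen-presenting cells were higher at 96 h after sham surgery as well. Of 18 Kupffer cell and macrophage markers 4 rose over both sexes, Cd74 (3), H2-Aa (2.4), H2-Ab1 (2.2) and Ctss (1.12), of which the first 3 belong to class II antigen presentation. Cd74 was at 1.99, 4.06 and 9.1 CPM in VOF at 52 h and at 43.9, 51.3 and 70.2 CPM at 96 h. It was at 9.77, 1.3 and 2.92 CPM in VOM and then at 66.7, 2.22 and 9.21 CPM. The VOF libraries were separate, and the VOM mean at 96 h was carried by replicate 1, without which the log2 fold change in VOM was 0.39 in place of 2.6. H2-Aa and H2-Ab1 had 0.54 and 0.82 in VOM without that library. The summed Kupffer level was 1079 to 1470 CPM in VOF at 52 h and 1598 to 3022 CPM at 96 h, and 1041 to 1643 CPM and 759 to 2949 CPM in VOM. In sham livers 13 of 18 markers rose in each sex (medians 1.36 and 1.67), beside 4.06% of all genes in VOF and 7.22% in VOM. The difference between PH and sham was called in 1 of 18, which was lower after PH, and in 0 to 9 when each library was left out in turn. The part of these cells in the interferon gene changes was not tested. None of 18 endothelial, 15 stellate and 5 erythroid markers was called by edgeR or DESeq2 (3, 2 and 1 at an unadjusted edgeR p under 0.05), 1 of 4 cholangiocyte markers rose, Spp1, and 2 of 4 lymphocyte markers rose. Summed endothelial markers were at 890 to 907 CPM and 830 to 963 CPM in VOF and at 929 to 1144 CPM and 629 to 751 CPM in VOM. All 9 neutrophil markers, 11 of 15 lymphocyte markers and the cholangiocyte markers Krt19, Krt7 and Epcam had no row in the table.

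The next comparison asks which of these changes also followed sham surgery. In VOF 449 genes (4.06%) rose and 336 (3.04%) fell between the sham times, and in VOM 798 (7.22%) rose and 906 (8.20%) fell. The difference between PH and sham in their 96 h against 52 h change was called in 598 of 11048 genes (5.41%), of which 398 (3.60%) were higher and 200 (1.81%) lower after PH. By sex, 36 genes (0.326%) were higher and 19 (0.172%) lower in VOF, and 876 (7.93%) higher and 510 (4.62%) lower in VOM. With so few calls in VOF, a list without a call there is close to the background. The VOM sham libraries at 52 h, all of one mix, held 112077 to 279283 CPM of Cyp2a5 and 126990 to 149569 CPM of Sgo2a, against 12.8 to 20.5 CPM and 0 to 1.71 CPM in the VOM sham libraries at 96 h. Cyp2a5 encodes a coumarin hydroxylase and Sgo2a shugoshin, a centromere protein. Both exceed the most transcripts that the molecular identifiers can count, as did 16 genes in these 24 libraries. In the VOM sham libraries at 52 h such genes held 53.1%, 54.4% and 54.2% of all counts. Every VOM comparison with sham at 52 h or over time uses these libraries, and the part of this in the VOM calls was not tested. Without such genes 382 were higher and 200 lower.

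After sham surgery Ifit1 was at 32.3 to 41.5 CPM in VOF at 52 h and 67 to 139 CPM at 96 h, and at 13.5 to 24.1 CPM and 29.8 to 44.4 CPM in VOM. The PH difference exceeded the sham difference by 3.43 over both sexes (edgeR adjusted p = 5.31e-08), by 6.1 in VOM and by 0.76 in VOF (edgeR adjusted p = 0.444). Of the 38 interferon genes 22 had a larger rise after PH (median 1.54), with 29 in VOM alone and none in VOF alone, where 2 were at an unadjusted edgeR p under 0.05. At 52 h 13 members were lower after PH than after sham in VOM (8.39% of all genes were) and 5 in VOF (2.90%), and at 96 h 26 were higher in VOM (4.67%). In VOF at 96 h 1 was lower (1.85%).

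Of the mitosis genes 60 of 69 were higher after PH than after sham in VOF at 52 h (3.26% of all genes were) and 49 at 96 h (2.81%). In VOM 23 were higher and 2 lower at 52 h (6.99% and 8.39%) and 39 were higher at 96 h (4.67%). The medians were 3.52 and 3.11 in VOF and 1.29 and 3.16 in VOM. VOM at 52 h was the group with the fewest members above sham. Its sham group had a mitosis level of 3.18 to 3.30, against 2.74 to 2.93 in the VOM sham group at 96 h. The change over time differed from sham in 12 members, 11 of them higher after PH, with 19 higher and 1 lower in VOM alone and none in VOF alone, where 1 was at an unadjusted edgeR p under 0.05. DNA replication genes were above sham in 25 (1 below) and 18 members in VOF at 52 h and 96 h, and in 7 (2 below) and 11 (1 below) in VOM.

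Several metabolic genes changed beyond sham. Srebf1 exceeded sham by 1.81 (edgeR adjusted p = 0.0016), with 1.92 in VOF and 1.7 in VOM, both called. Igfbp1 differed by -2.14 (edgeR adjusted p = 0.0036), with -1.91 in VOF (edgeR adjusted p = 0.184) and -2.37 in VOM. Over both sexes Thbd (-2.65), Fabp4 (-3.13), Inhbb (-2.71), Plin2 (-1.54) and Il1r1 (-1.44) had lower PH differences, and Otc (1.40), Gstm1 (1.28), Gsta4 (2.81) and Lgals1 (1.29) had higher ones. None of these 9 was called in VOF alone, and all except Il1r1 were called in VOM alone. In VOF and VOM the values were -1.15 and -5.10 for Fabp4, -1.23 and -4.20 for Inhbb, and -0.78 and -2.29 for Plin2. They were 0.53 and 2.26 for Otc, 0.26 and 2.30 for Gstm1, 0.69 and 4.92 for Gsta4, and 0.85 and 1.72 for Lgals1. Thbd had -1.86 and -3.43, and Il1r1 -1.66 and -1.22. Cyp7a1 was at 62.1 to 190 CPM and 32.7 to 116 CPM in VOF sham livers and rose from 7.06 to 24.7 CPM to 81 to 149 CPM in VOM sham livers, and its PH difference of 1.5 over sham did not pass (edgeR adjusted p = 0.192). In VOF alone it was 3.50 and called (edgeR adjusted p = 0.0903), and in VOM alone it was -0.50 (edgeR adjusted p = 0.836). Cyp51 had -0.88 (edgeR adjusted p = 0.0675), short of 2-fold, with -0.36 in VOF and -1.40 in VOM. Cdkn1a had -1.21 over both sexes, a call lost in 16 of the 24 fits without 1 library, and -2.69 in VOF. The Thbd difference was -2.18 without sham VOM replicate 1 at 96 h (edgeR adjusted p = 0.148).

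**Figure D5:**
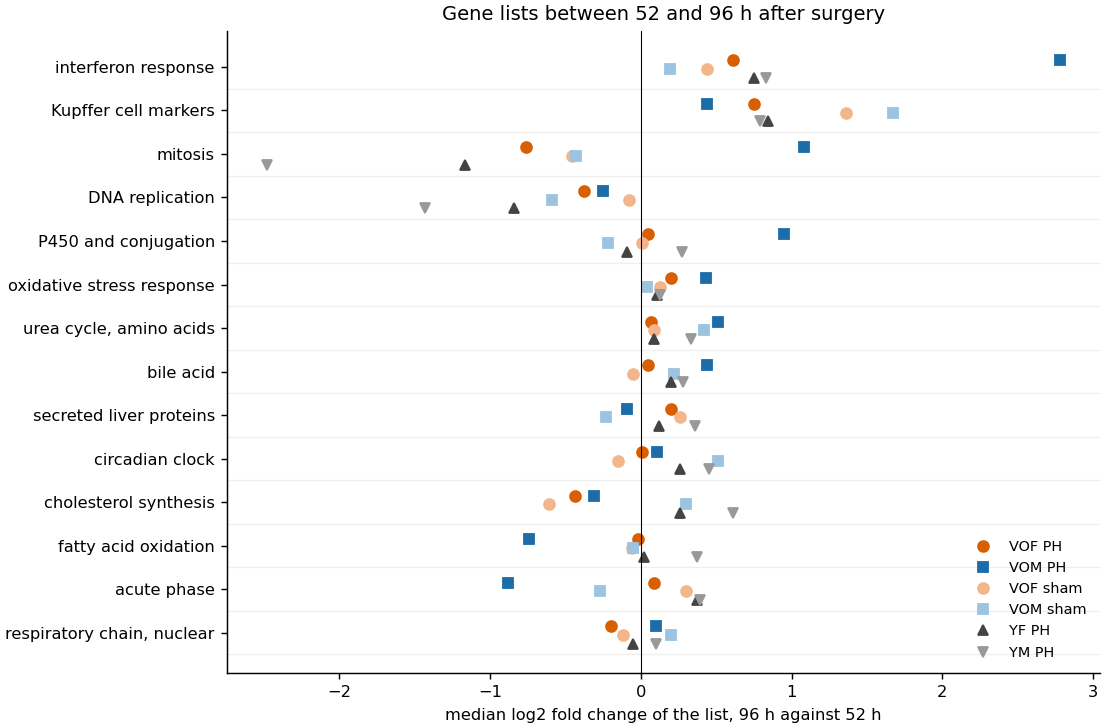
Median log2 fold change from 52 h to 96 h of 14 gene lists in VOF and VOM after PH, in VOF and VOM after sham surgery, and in YF and YM after PH. Mitosis genes have a median of 1.08 in VOM after PH and lie below 0 in the other 5 columns, and interferon genes reach 2.78 in VOM after PH.

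The last comparison asks where very old livers changed over time unlike young ones. In young mice 354 genes (3.20%) rose and 420 (3.80%) fell from 52 h to 96 h after PH. The difference between the ages was called in 936 of 11047 genes (8.47%), of which 564 (5.11%) were higher and 372 (3.37%) lower in very old mice. Of 69 mitosis genes 51 had the higher difference in very old mice and none the lower (median 1.85). The sexes stood apart here too, since VOM against YM alone gave 58 higher (9.31% of all genes were, and 7.74% lower), and VOF against YF alone gave 7 higher and 9 lower (3.94% and 4% of all genes). The mitosis level was 4.40 to 5.19 in YF at 52 h and 3.64 to 4.26 at 96 h, and 5.05 to 5.29 and 3.45 to 3.60 in YM. In YM 56 mitosis genes fell (5.08% of all genes did), and in YF 27 fell and 1 rose (3.70% and 3.55%).

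Mki67 was at 31.5 to 56.6 CPM in YF at 52 h and 7.81 to 30.5 CPM at 96 h, and at 92.5 to 115 CPM and 11.4 to 21.1 CPM in YM. It fell by 1.32 in YF and 2.62 in YM, neither with an overlap, and the age difference was 1.89 (edgeR adjusted p = 0.00248), with 3.25 in VOM against YM and 0.52 in VOF against YF (edgeR adjusted p = 0.611). For Plk1 the age difference was 2.44 over both sexes, 5.99 in VOM and -1.11 in VOF (edgeR adjusted p = 0.516). Cdc20, an activator of the anaphase-promoting complex, had 3.87, with 5.61 in VOM and 2.14 in VOF (edgeR adjusted p = 0.281). Cdkn3, a phosphatase of Cdk1, had 4.45, with 6.32 in VOM and 2.58 in VOF (edgeR adjusted p = 0.176). The VOM values of these 4 genes were called and the VOF values were not. For Prc1 it was 5.54 in VOM against YM and -2.64 in VOF against YF, opposite calls that average to 1.45. Cdk1 likewise had 4.18 and -1.64. DNA replication genes were called in 14 of 43, all higher in very old mice, among them Uhrf1 (3.84, with 5.46 in VOM and an uncalled 2.21 in VOF), which keeps DNA methylation through replication, while 13 had fallen in YF and 32 in YM.

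Cyp7a1 had the higher difference in very old mice by 3.08 (edgeR adjusted p = 0.00683), with 2.83 in VOF and 3.33 in VOM. Srebf1 had 2.52, with 2.08 and 2.95. Both sexes of each were called. Cyp51 had -1.45 (edgeR adjusted p = 0.0013) and Sqle -1.99 (edgeR adjusted p = 0.000523), with 8 of 26 cholesterol genes lower and 1 higher. In young mice Cyp51 had 0.23 in YF and 0.19 in YM, and Sqle rose by 1.27 in YM. Thbd (-3.14) and Il1r1 (-2.22) were lower in both sexes, and Igfbp1, Inhbe and Saa1 were lower over both sexes (-1.72, -2.82 and -1.65) with calls in VOM alone. In VOM against YM they had -2.98, -5.93 and -2.50, and in VOF against YF -0.46, 0.28 and -0.79. Scd1, stearoyl-CoA desaturase, had -1.29 over both, -1.65 in VOF and an uncalled -0.92 in VOM. Of 39 acute phase genes 11 were lower and 1 higher. Interferon genes rose in young mice too, 11 of 38 in YF (median 0.75) and 9 in YM (median 0.83, beside 3.9% of all genes). For Ifit1 the log2 fold change was 2.25 in YF and 2.72 in YM, and the difference of VOF from YF was -0.08 and not called, while over both sexes it was 2.06. Cxcl10 was higher in very old mice in both sexes, by 2.53 over both.

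Several of the named calls rested on single libraries. Over both sexes Ctss, Dusp1 and Psat1 lost their call in 7 of the 12 fits without 1 library, Ccne1 and Nqo1 in 6, Prodh in 5, Msmo1, Mcm3 and Maff in 4, and Anxa2 in 3. Without VOM replicate 2 at 52 h the log2 fold change was -0.81 for Ier3, -0.85 for Irs2 and 0.90 for Dglucy, each under 2-fold. Hal had 0.97 without VOM replicate 2 at 96 h, Spp1 0.99 without VOF replicate 1 at 96 h, and Akr1d1 1.44 or 1.55 without VOM replicate 1 or 3 at 52 h. In VOF Gstm1 had 0.92 without replicate 2 at 52 h, and Gsta4 0.90 without that library and 0.75 without replicate 1 at 96 h. Ifit3 lost its VOF call without replicate 1 at 52 h (1.87, edgeR adjusted p = 0.103), and Npas2 without replicate 1 at 96 h (-1.94) or replicate 3 at 52 h (-2.20). The VOF fall of Cyp3a41a was lost in 4 fits without 1 library, with log2 fold changes of -0.93 to -1.30, and those of Cdk1 in 4.

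One X library allowed a look within a mix, between replicate 3X of VOF at 96 h and replicate 3 of VOF at 52 h. There is no replicate for it, and no test. Mitosis genes had a median log2 difference of -0.87, with 2 of 69 above 0, and interferon genes of 0.35, with 31 of 38 above 0. Prc1 (-2.29), Aurka (-1.99), Cyp51 (-1.74), Igfbp1 (-1.63) and Cdkn1a (-0.81) were lower, and Ifit1 (1.93), Cyp7a1 (1.79), Cd74 (2.40) and Gsta4 (0.78) were higher, each in the direction of the VOF groups. The 52 h library is itself one of those groups, and the genes were picked from those named above. The shared direction is therefore no separate check. No mix held both times of VOM.

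Rad54b, a helicase-like protein of recombination repair, had the largest sex difference toward VOM among called genes with a mean of at least 10 CPM. It was at 1476, 2216 and 1799 CPM in VOM at 96 h (3564 to 4001 counts) and between 0 and 1.46 CPM in the other 9 libraries. Of the 9 libraries at 1 month in the series 5 had 39367 to 166483 counts. Outside that time and VOM at 96 h, the 121 libraries of the table had 0 to 117. The value is given as the table holds it.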

How the data were processed

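Hepatocyte RNA was measured by CEL-seq2 in 133 libraries, of which 12 are compared here. The authors mapped reads to GRCm38, counted molecular identifiers, corrected them for 4096 possible identifiers (at most 34069.6 transcripts), removed 9 genes and those with low expression, and corrected between datasets with ComBat-Seq. The deposited values are these expected counts, not scaled for library size. They were rounded to whole numbers here (30966 values in 448 genes were not whole). The low-expression threshold and the batch variable are not given in the sources used here, and the submitters' processing notes list GRCh38, a human build, while the gene identifiers are mouse. No gene exceeded the identifier limit in the 12 libraries. The closest pair of these 12 within a group had a chi-square per degree of freedom of 4.18 (about 1 is counting noise).

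Genes that reached 0.5 CPM in any library of a fit were tested, and edgeR 4.0.16 (R 4.3.3; TMM, glmQLFit, glmQLFTest) was fitted with the sex prefix as a block. Interactions of time with sex (12 libraries), surgery (24) and age (24) used group means. CPM values were scaled over 77 libraries together, and list levels are means of log2(CPM + 4). Tables and plots were made with Python 3.11.15, pandas 2.3.3, NumPy 2.4.6, SciPy 1.17.1 and matplotlib 3.10.9. Replicate numbers came from the labels; same-numbered libraries correlated at -0.01 to 0.18, with 3 of 6 pairs over 0.1, and were not taken as pairs. The tests were first checked on simulated counts with known changes. The changed genes were drawn from those with a mean of at least 10 CPM. In the check over both sexes each changed alike in VOF and VOM. Of 2-fold changes edgeR called 40% over both sexes and 22% in the sex interaction, and of 4-fold changes 100% and 86%. Unchanged genes were called in 7 and 26 cases. A gene that was not called can therefore hold a change near 2-fold. These shares do not carry over to genes of lower counts. Nor do those over both sexes carry over to genes whose change differed between VOF and VOM, which can hold larger changes uncalled.

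The groups, the 34 gene lists, the tests and the rule for named genes were chosen with earlier results of these data known. Named genes were a fixed set of anchors, up to 4 called genes per list and direction with the largest change, the 10 largest non-overlapping changes each way, and the 5 largest in each interaction. Alternatives were DESeq2 1.42.0, RLE normalization, other thresholds and filters, 4 group means, all very old groups in the fit, the X libraries, the mix as a random block in limma 3.58.1, the replicate block, replicate subsets and leaving out each library. Some genes that the rule names are not reported here.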

Additional observations from a re-analysis of the deposited data

Results flagged for a closer look

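Differences between groups under the same contrast were tested as interactions, with edgeR and Benjamini-Hochberg adjustment. The change from 52 h to 96 h after PH differed between VOF and VOM in 1861 genes, between PH and sham surgery in 598, and between very old and young mice in 936. Among the lists, the sexes differed in 33 of 69 mitosis genes, 22 of 38 interferon genes and 38 of 90 cytochrome P450 and conjugation genes, beside 16.9% of all genes. The ages differed in 51 mitosis genes (8.47% of all genes differed), and PH differed from sham in 22 interferon genes (5.41%). Taken by sex, most of these calls were in VOM. The mitosis calls of VOF against YF went both ways, and no interferon gene was called for PH against sham in VOF.

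Of the anchor genes, the VOF minus VOM difference of log2 fold changes was -1.43 for Mki67, -2.27 for Cdk1, -3.15 for Ccnb1, -2.05 for Ccna2, -2.64 for Cdkn1a, 1.45 for Lcn2 and 1.77 for Igfbp1. The Mki67 and Igfbp1 differences were each lost in 8 of the 12 fits without 1 library, and that of Ccna2 in 6 and also with the X libraries. In each sex the time and the mix largely coincide, and their parts cannot be told apart.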

How the results depend on the processing

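Of the 93 called genes named in the comparison over both sexes, 90 kept their call with DESeq2, 93 with the RLE normalization, 91 with the X libraries, 84 with the mix as a random block and 74 without VOM replicate 2 at 52 h, the library whose omission cost most calls. Cyp4a12a turned from -2.44 to a log2 fold change of 0.03 with 4 group means and 0.04 with all very old groups in the fit. Over both sexes an adjusted p under 0.05 with no fold minimum gave 963 genes, replicates 1 and 2 alone 154 and replicate 3 alone 8, with fewer libraries. The same threshold gave 967 genes for PH against sham and 1456 for very old against young. For PH against sham VOF alone gave 55 genes and VOM alone 1386. For the ages VOM against YM gave 1884, and VOF against YF 435 higher and 442 lower. In VOF DESeq2 gave 408 genes and leaving out replicate 3 at 52 h gave 404. Without 1 library the counts ranged from 437 to 683 over both sexes, 1436 to 1921 for the sex difference, 477 to 713 for PH against sham, 849 to 987 for the ages, 404 to 690 in VOF and 1391 to 1746 in VOM. With the replicate block 292 genes rose and 201 fell over both sexes, and 15 of the 93 named genes lost their call. The numbers were not taken as pairs, although 4 of 6 libraries at 52 h correlated best with their own number. Same-numbered libraries had an r of 0.179, 0.169 and 0.0977 in VOF and of 0.156, -0.0117 and 0.0539 in VOM. The smallest total, 1207501 counts, limits genes of a few CPM.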
